A study of Mus musculus with 23 samples.

Results

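Open chromatin was described at 8 genes listed as markers of classical monocytes in the mouse, of which Spn is better known from nonclassical ones: Ly6c1, Ly6c2, F13a1, Vcan, Spn, S100a4, S100a8 and S100a9. ATAC-seq, which cuts accessible DNA with a transposase, had been run on 23 libraries in 11 groups, and each library had its own list of called peaks. Overlapping peaks were merged across the libraries, and a merged region belonged to a member gene when that gene's body was the nearest protein-coding one within 50 kb. This rule, which used no signal value, gave 85 regions of 155137 in all. F13a1 had 23 of them, Spn 17, Vcan 14, S100a9 11, Ly6c2 8, Ly6c1 6, S100a8 4 and S100a4 2. Values are normalized tag counts, the tags in a peak scaled to 10 M tags per library.

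The blood group held 2 libraries of Ly6C-high monocytes from untreated C57BL/6J mice. Macrophages repopulating the liver came from Clec4f-cre/Rosa26iDTR mice, in which diphtheria toxin removes cells that have expressed Clec4f, a gene of Kupffer cells. They were taken 24 h (3 libraries) and 48 h (2 libraries) after the toxin, and the Kupffer cells set beside them (2 libraries) came from mice of that genotype given PBS. TIM4+ Kupffer cells from Nr1h3 flox/flox mice were the controls (2 libraries) for TIM4+ cells (2) and TIM4- cells (2) from Nr1h3 flox/flox Clec4f-cre +/- mice, so the TIM4- cells differ from their controls in TIM4 status as well as genotype. Their titles also carry ClecNeg for the controls and ClecPos for both knockout groups, and do not say what that label stands for. Nr1h3 encodes the nuclear receptor LXR alpha. For Smad4, a mediator of TGF-beta family signals, 2 libraries are titled knockout and 2 control, but the strain labels give the titled knockouts as Smad4 flox/flox and the titled controls as Smad4 flox/flox Clec4f-cre +/-. The titles were followed here, and every direction in that comparison rests on them. Bone-marrow-derived macrophages (BMDM) from C57BL/6J mice, cultured for 4 days, were untreated (2 libraries) or treated with the Notch ligand DLL4 for 24 h (2 libraries). The titles of the blood, repopulating and PBS Kupffer libraries carry a separate mouse number each. Nothing states that the libraries of each other group are separate animals or cultures, so p-values there measure the spread between these libraries.

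Classical monocytes leave the bone marrow through the blood with high surface Ly6C, a small GPI-anchored protein encoded by the paralogs Ly6c1 and Ly6c2. When the liver loses its resident macrophages, the Kupffer cells, monocytes can enter and replace them. S100a8 and S100a9 encode the subunits of calprotectin and are also abundant in neutrophils, and S100a4 encodes a calcium-binding protein linked to cell motility. Vcan encodes the matrix proteoglycan versican, F13a1 the A subunit of coagulation factor XIII, and Spn the sialoglycoprotein CD43, which is higher on nonclassical monocytes.

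Promoter windows of 250 bases before and 50 after an annotated start (RefSeq, GRCm38.p6) are shown for 4 genes with a peak over the start and for Ly6c1, which had none. Capitals mark matches, on either strand, to AGGAAGT (a core of the PU.1 site) or TGTGGTT (a core of the RUNX site), and the sequences run 5′ to 3′ on the gene's strand.
S100a4, chr3:90603520-90603819, + strand: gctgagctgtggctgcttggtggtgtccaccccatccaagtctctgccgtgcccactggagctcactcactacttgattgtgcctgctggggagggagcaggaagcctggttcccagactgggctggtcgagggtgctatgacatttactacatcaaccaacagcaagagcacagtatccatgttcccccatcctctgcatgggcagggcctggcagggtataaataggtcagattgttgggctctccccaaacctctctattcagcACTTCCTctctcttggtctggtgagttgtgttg
S100a8, chr3:90668821-90669120, + strand: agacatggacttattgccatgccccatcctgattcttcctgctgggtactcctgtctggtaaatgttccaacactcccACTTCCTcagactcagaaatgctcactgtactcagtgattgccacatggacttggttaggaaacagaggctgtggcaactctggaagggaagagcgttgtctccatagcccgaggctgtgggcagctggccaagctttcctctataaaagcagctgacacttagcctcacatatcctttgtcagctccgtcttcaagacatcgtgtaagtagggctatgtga
F13a1, the inner of 2 listed starts, chr13:37049164-37049463, - strand: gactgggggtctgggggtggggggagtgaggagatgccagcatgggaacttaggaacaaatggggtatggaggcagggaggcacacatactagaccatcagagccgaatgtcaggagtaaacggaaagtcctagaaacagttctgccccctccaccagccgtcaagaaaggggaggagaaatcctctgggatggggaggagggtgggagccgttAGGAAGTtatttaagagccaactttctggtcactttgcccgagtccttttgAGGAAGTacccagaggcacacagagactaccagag
Ly6c2, chr15:75111922-75112221, - strand: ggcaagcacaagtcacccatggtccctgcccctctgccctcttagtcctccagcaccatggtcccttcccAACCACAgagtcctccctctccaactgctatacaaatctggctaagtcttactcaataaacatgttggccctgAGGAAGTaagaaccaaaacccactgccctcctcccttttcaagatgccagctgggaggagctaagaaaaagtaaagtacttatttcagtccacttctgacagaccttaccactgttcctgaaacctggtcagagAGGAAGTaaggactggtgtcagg
Ly6c1, the outer of 2 listed starts, chr15:75048788-75049087, - strand: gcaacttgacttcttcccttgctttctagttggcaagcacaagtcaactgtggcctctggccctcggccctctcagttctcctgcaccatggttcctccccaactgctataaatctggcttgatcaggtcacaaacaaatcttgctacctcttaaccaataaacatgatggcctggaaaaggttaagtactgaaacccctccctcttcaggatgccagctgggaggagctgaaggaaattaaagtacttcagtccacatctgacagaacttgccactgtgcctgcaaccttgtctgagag

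AGGAAGT was found at the starts of 6 of the 8 genes, the exceptions being Vcan and S100a9, and 10.7% of the 27025 genes with a window held it. In F13a1 the matches lay at -36 and 15 from the start, in Ly6c2 at -107 and 27, in S100a4 at 17 and in S100a8 at -172, all of them inside the merged region over that start. TTGCNNAA (C/EBP) was found in S100a9 alone among the members, against 12.2% of genes, and TGANTCA (AP-1) in no member, against 9.0%. The RUNX core was in Ly6c2 only, against 6.1%. None of these matches overlapped another. The Ly6c1 and Ly6c2 windows above shared 211 of 265 aligned bases (79.6%), and the inner Ly6c1 window, which overlaps the outer one, held AGGAAGT at -126. A match is a description of letters and shows no binding.

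Libraries held 10.4 to 18.4 M tags and 48775 to 104206 peaks, with 15.4% to 54.7% of tags in peaks. The tag threshold of the peak caller was 8 in blood, 24 h and 48 h libraries and 9 in PBS Kupffer libraries. It was 9 or 10 in Nr1h3, 10 or 11 in Smad4 and 8 or 9 in BMDM libraries. Its part in the counts of called regions was not tested. The 669 peaks at the 8 genes held 8 to 665 tags, with a median of 26, so most values rest on few tags. A region without a called peak is not shown to be closed: the peak caller needed 4 times the signal of the surrounding 10 kb, so a strong neighbour can hide a weaker site. Kupffer genes (Clec4f, Timd4, Vsig4 and 5 others, 139 regions) had 78 called regions in each PBS Kupffer library and 27 to 36 in blood and 24 h libraries. They had 67 to 89 in untreated and 75 to 76 in DLL4-treated BMDM, so this count does not set Kupffer cells apart from BMDM. Single genes differed. Timd4 had 15 and 14 called regions in PBS Kupffer libraries and 0 in both blood libraries, while Vsig4 had 7 and 8 against 4 and 7. At the neutrophil genes Camp, Ngp and Elane no peak was called outside the BMDM groups, while Ly6g had 1 in every blood, 24 h and 48 h library. Cxcr2 (4 of 5 regions in each blood library, summed signal 75.7 and 117) and Mpo (2 of 4, 40.7 and 40.2) had peaks in every blood, 24 h and 48 h library and in none of Kupffer type. Of 72 regions of the 12 neutrophil genes, 33 to 34 were called in blood, 27 to 34 at 24 h, 30 to 36 at 48 h, 22 to 23 in PBS Kupffer cells and 45 to 53 in BMDM; their summed signal was 1084 to 1450 in blood, 927 to 1019 at 24 h, 1178 to 1360 at 48 h and 781 to 1012 in PBS Kupffer cells.

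The member regions were called most often in BMDM and blood monocytes, less often in the repopulating macrophages, and least often in Kupffer cells. Blood libraries had 43 and 48 of the 85 regions, the 24 h libraries 30 to 31, the 48 h libraries 32 and 37, and the PBS Kupffer libraries 15 and 19. TIM4+ Nr1h3 controls had 14 and 15, TIM4+ Nr1h3 knockouts 10 and 13, and TIM4- Nr1h3 knockouts 19 and 25. The titled Smad4 knockouts had 13 each and the titled controls 19 and 21. Untreated BMDM had 54 and 61, and DLL4-treated BMDM 49 and 51. Every blood and repopulating library was above every Kupffer-type library. Regions called in every library of the group made up 48.2% of the members in blood, against 38.3% of all regions, and 16.5% in PBS Kupffer cells, against 35.0%. The members' share was below that of all regions at 24 h (28.2% against 33.2%), at 48 h (34.1% against 43.0%), in TIM4+ Nr1h3 controls (16.5% against 33.9%), in TIM4+ (11.8% against 27.9%) and TIM4- Nr1h3 knockouts (20% against 38.3%), and in titled Smad4 knockouts (14.1% against 28.2%) and controls (21.2% against 34.2%). It was 52.9% against 51.4% in untreated and 45.9% against 53.3% in DLL4-treated BMDM. In bulk libraries fewer cells of a kind and less accessible chromatin per cell cannot be told apart.

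**Figure D1:**
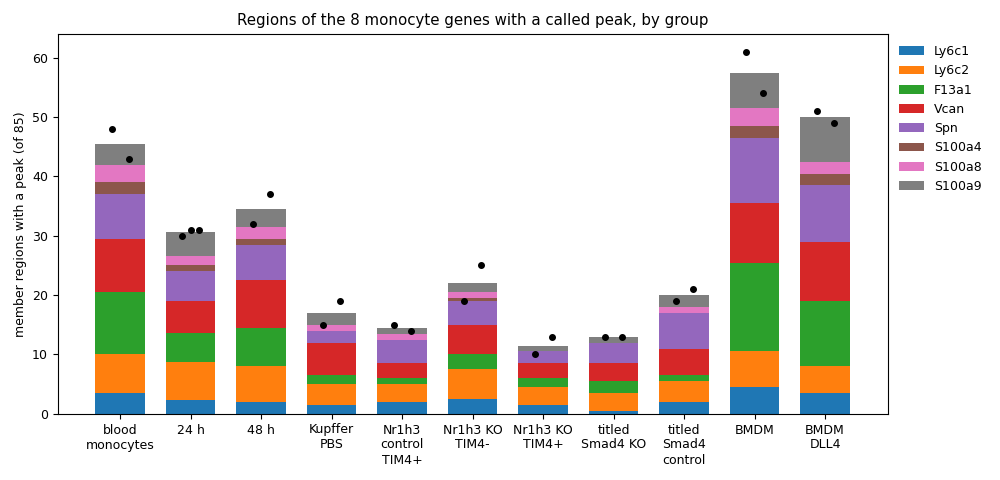
Number of the 85 member regions with a called peak (y axis) in each group (x axis). Bars are group means coloured by gene and points are libraries. Blood libraries had 43 and 48, PBS Kupffer libraries 15 and 19.

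Of the 85 regions, 7 (8.2%) were called in all 23 libraries, against 17.2% of all regions, and 15 (17.6%) in 1 library, against 16.7%. The 7 were the S100a9 region 14.6 kb upstream, Spn regions 7.97 kb downstream and 28.0 kb upstream, the F13a1 region 6.65 kb upstream, Vcan regions 2.06 and 2.95 kb downstream, and the Ly6c2 region 25.1 kb downstream of the start. None of the 7 lay over a start. Inside a gene body lay 43 regions (50.6%), against 60.1% of all.

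**Figure D2:**
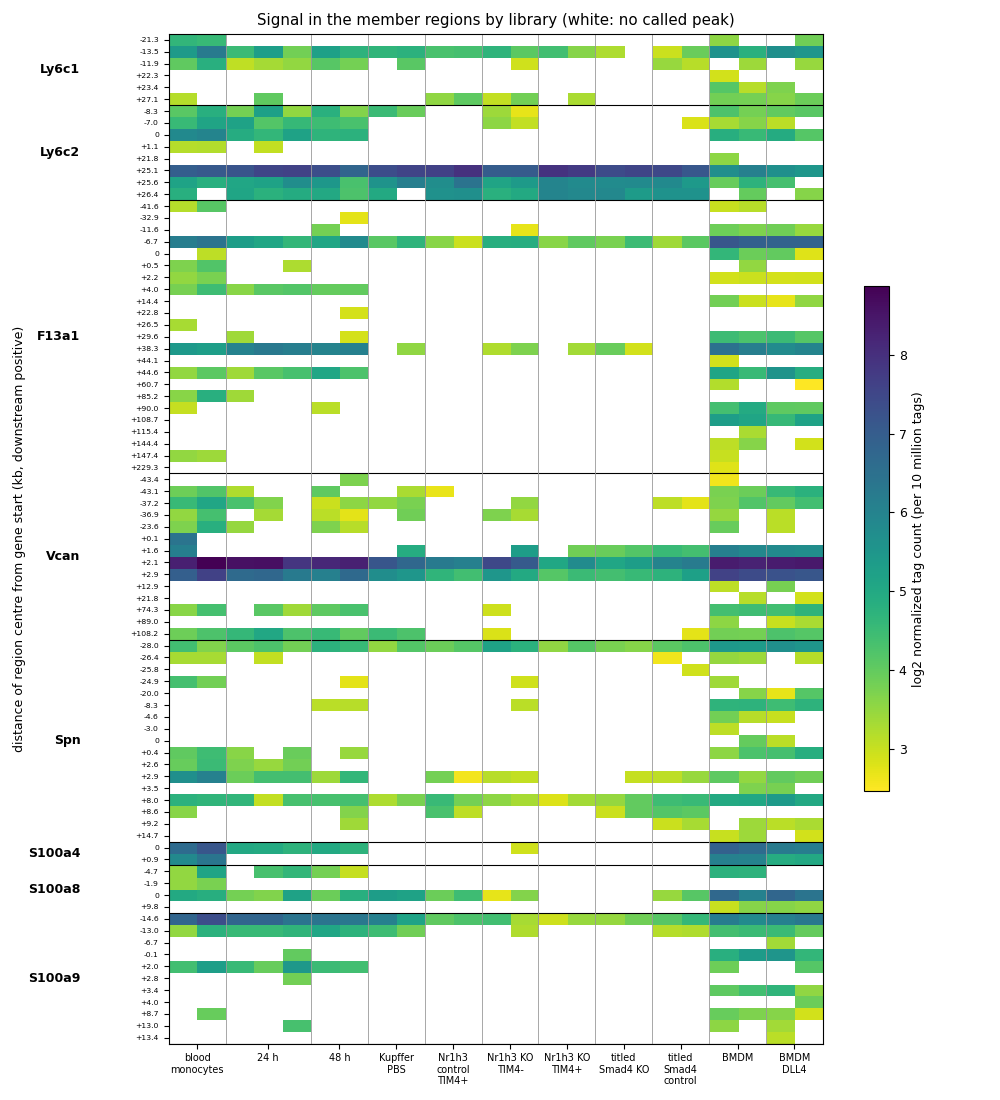
Signal of the 85 member regions (rows, ordered by gene and by distance from its start in kb) in the 23 libraries (columns, by group), as log2 normalized tag count. White cells have no called peak. The S100a4 rows and the Ly6c2 row at the start are filled in all blood and BMDM libraries and white in all Kupffer-type libraries but 1 S100a4 cell, while the Ly6c2 rows 25 to 26 kb downstream are filled nearly everywhere.

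Among the members tested, S100a4 had the largest fall from blood at 24 h and at 48 h. The region over its start (chr3:90603590-90603926) had 99.3 and 142 normalized tag counts in blood, 31.8, 30.9 and 26.6 at 24 h, and 31.4 and 26.4 at 48 h. No PBS Kupffer library had a peak there, and among the 12 libraries of Kupffer type 1 TIM4- Nr1h3 knockout library did, at 7.6. Blood did not overlap with either time point. After centring each library on its median region, the log2 difference from blood was -1.70 (SE 0.25, adjusted p = 6.9e-06, limma) at 24 h and -1.90 (SE 0.24, adjusted p = 4.2e-09) at 48 h. The difference between the 2 time points did not pass (log2 -0.21, SE 0.30, adjusted p = 0.74). A second S100a4 region, 872 bases downstream of the start, had 57.0 and 83.2 in blood and was called in no repopulating or Kupffer library.

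At S100a8 the called peak lay on different sides of the start in different groups. In blood both libraries had a peak 122 to 139 bases upstream of the start (31.7 and 28.9) and a weaker one 139 to 152 bases downstream (18.7 and 9.87). In all 3 libraries at 24 h, and in 1 at 48 h, the called peak lay 90 to 138 bases downstream, with 14.0, 12.7, 36.0 and 14.8. Both PBS Kupffer libraries had only the upstream one, at 39.8 and 36.4, as did the other 48 h library, at 28.6. Since these peaks merge into 1 region (chr3:90668828-90669391), a comparison across groups sets values from either side of the start beside each other. Kupffer cells were above 48 h macrophages in that region (log2 1.14, SE 0.32, adjusted p = 0.0065) and above blood (0.71, SE 0.31, adjusted p = 0.045). Neither call was stable. Without centring the second was 0.32 (adjusted p = 0.52), without blood library 2 it was 0.45 (adjusted p = 0.34) and without Kupffer library 1 it was 0.59 (adjusted p = 0.20). The first was 0.73 (adjusted p = 0.18) without 48 h library 1 and 1.03 (adjusted p = 0.065) without Kupffer library 1. A region 1.88 kb upstream was called in both blood libraries (11.4 and 13.4) and in no other.

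**Figure D3:**
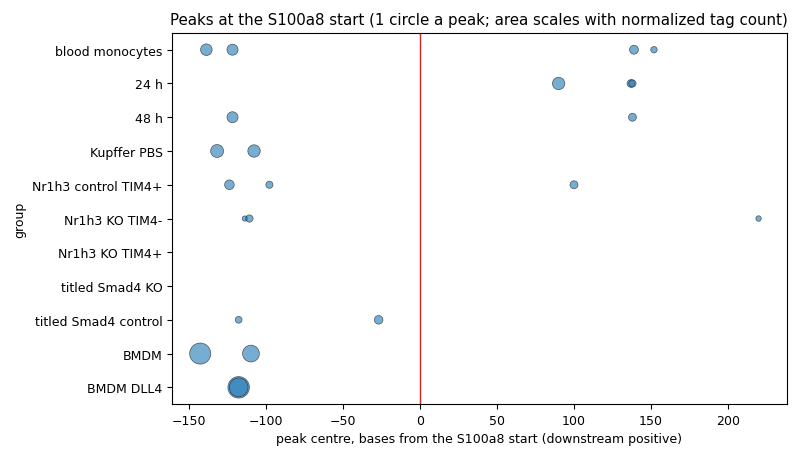
Position of each called peak at the S100a8 start (x axis, bases from the start, downstream positive) by group (y axis), with circle area scaling with normalized tag count. All 24 h peaks lie 90 to 138 bases downstream, the PBS Kupffer peaks 108 to 132 bases upstream.

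S100a9, which neighbours S100a8, had its strongest region 14.6 kb upstream (chr3:90710150-90710410). It held 109 and 164 in blood, 109.5, 109.9 and 84.4 at 24 h, 84.5 and 79.9 at 48 h and 67.3 and 35.5 in PBS Kupffer cells. The group order fell from blood to Kupffer cells, and 24 h overlapped with blood and with 48 h. Against blood the log2 difference was -0.14 (SE 0.18, adjusted p = 0.61) at 24 h, -0.58 (SE 0.18, adjusted p = 0.010) at 48 h and -1.04 (SE 0.23, adjusted p = 0.00013) in Kupffer cells. The Kupffer value was -0.47 (adjusted p = 0.065) without Kupffer library 2, and the 48 h value was -0.46 (adjusted p = 0.10) without 48 h library 2, -0.49 (adjusted p = 0.11) without blood library 2 and -0.69 (adjusted p = 0.063) without centring. A region inside the gene, 2.03 kb downstream of the start, was called in both blood and all repopulating libraries (15.4 to 43.6) and in no Kupffer-type library. The region over the S100a9 start was called in all 4 BMDM libraries, at 24.6 to 46.5, and elsewhere only in 24 h library 3, at 16.1. That library also had 2 S100a9 peaks that no other blood or repopulating library had. At the neutrophil gene Cxcr2 it had 5 of 5 regions called (summed signal 91.1), against 2 (35.6) and 1 (11.8) in the other 24 h libraries. Another neutrophil gene, Csf3r, went the other way (135.5, against 209.8 and 169.7). Over all 12 neutrophil genes this library had 30 of 72 regions (958.8), between the other 24 h libraries (34, 1018.7, and 27, 926.8). The part of such cells in these values was not tested.

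The Ly6c2 start had a peak in every blood and repopulating library and none in any of the 12 Kupffer-type libraries. Its region (chr15:75111828-75112174) held 57.0 and 62.7 in blood, 30.0, 24.5 and 36.0 at 24 h, and 26.1 and 27.1 at 48 h. Blood was above every repopulating library. The 48 h difference passed (log2 -1.03, SE 0.28, adjusted p = 0.0032), and at 24 h it was -0.71 (SE 0.29, adjusted p = 0.065). A region 6.97 kb upstream of the start was likewise called in all blood and repopulating libraries (18.2 to 36.5) and in no PBS Kupffer library. The region 1101 bases downstream was weak, with 9.0 and 9.2 in blood, 8.2 in 1 library at 24 h and no peak elsewhere.

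A cluster of 3 Ly6c2 regions behaved otherwise. It lies 25.1 to 26.4 kb downstream of the start (chr15:75085456-75087033), between Ly6c2 and Ly6c1, and its strongest region held 124.5 and 135 in blood, 147 to 195 at 24 h, 160 and 110 at 48 h and 164 and 190 in PBS Kupffer cells. Kupffer cells were above blood there (log2 0.83, SE 0.17, adjusted p = 4.2e-05), as in the region beside it (1.23, SE 0.28, adjusted p = 0.00021), but without centring these were 0.44 (adjusted p = 0.26) and 0.84 (adjusted p = 0.056). At 24 h the strongest region differed from blood by 0.69 (SE 0.17, adjusted p = 0.0030), and by 0.42 (adjusted p = 0.22) without centring and 0.54 (adjusted p = 0.12) without blood library 2. Tags in peaks were 37.9% and 50.7% in blood, 36.8% to 42.5% at 24 h and 32.6% and 36.6% in PBS Kupffer cells; in untreated BMDM, at 54.1% and 48.3%, the region held 52.2 and 67.4. The part of that share in the result was not tested.

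Ly6c1 had no called region in its body or over its starts in any library. Its most often called region, 13.5 kb upstream (chr15:75062128-75062462), held 41.5 and 76.8 in blood, 14.2 to 39.0 at 24 h, 37.5 and 26.4 at 48 h and 25.6 and 26.8 in PBS Kupffer cells. All liver values lay below blood, with log2 differences of -0.98 (SE 0.34, adjusted p = 0.030), -0.71 (SE 0.28, adjusted p = 0.043) and -0.69 (SE 0.29, adjusted p = 0.042). None of these 3 passed without blood library 2 (adjusted p = 0.32, 0.35 and 0.37). The 24 h call also ended without 24 h library 1 (adjusted p = 0.060) or 3 (0.066) or blood library 1 (0.078), the 48 h call without 48 h library 2 (0.39) or centring (0.079), and the Kupffer call without Kupffer library 1 (0.069) or 2 (0.12). A region 21.3 kb upstream was called in both blood libraries (25.2 and 23.3) and in no repopulating or Kupffer-type library. Because Ly6c1 and Ly6c2 are near copies, reads from either could have been discarded or placed at the other, and their values are uncertain.

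**Figure D4:**
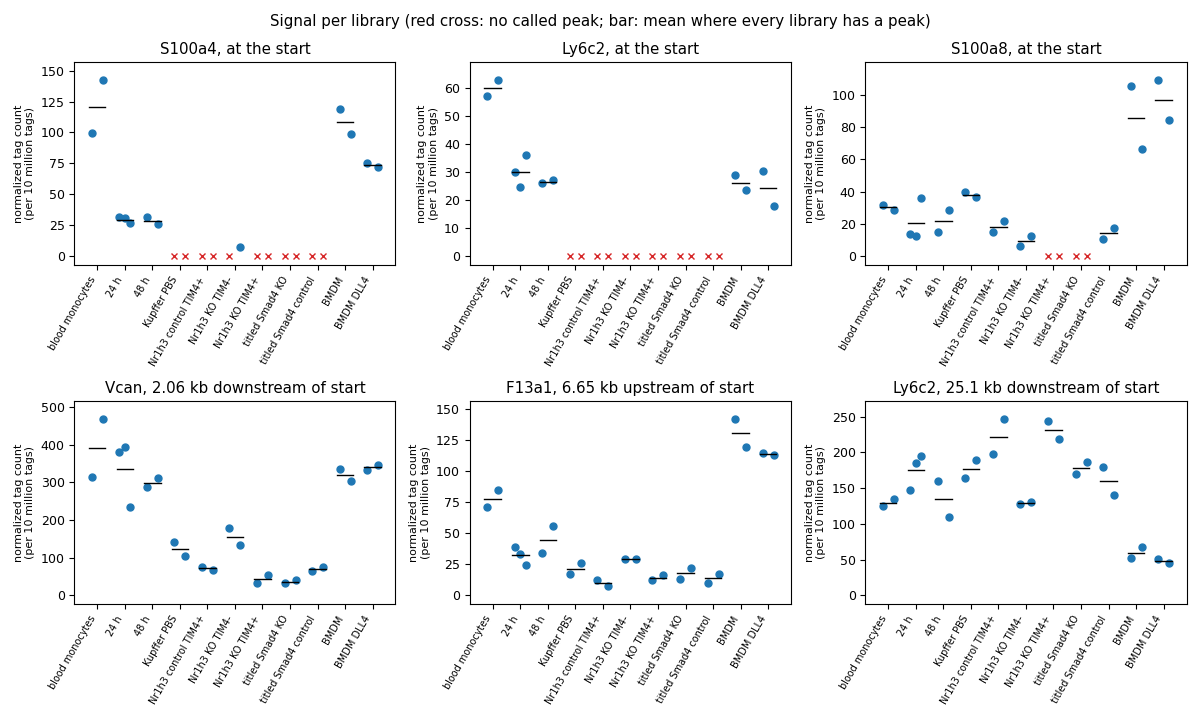
Normalized tag count (y axis, linear) of 6 member regions in each library (points) by group (x axis). Red crosses mark libraries with no called peak and black bars the mean where every library has one. The S100a4 start has a peak in 1 of the 12 Kupffer-type libraries and the Ly6c2 start in none, while the Ly6c2 region 25.1 kb downstream is lowest in BMDM.

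F13a1 regions moved in both directions. The region 6.65 kb upstream (chr13:37056718-37057069) held 70.8 and 84.6 in blood, 39.3, 33.6 and 24.7 at 24 h, 34.0 and 55.7 at 48 h and 17.1 and 25.9 in PBS Kupffer cells. Blood was above all of these. The log2 difference was -1.44 (SE 0.28, adjusted p = 1.9e-05) in Kupffer cells, -0.98 (SE 0.27, adjusted p = 0.0066) at 24 h and -0.70 (SE 0.25, adjusted p = 0.020) at 48 h. The 24 h call ended without blood library 1 (-0.93, adjusted p = 0.10) or 2 (-1.07, adjusted p = 0.063), and the 48 h call without 48 h library 1 (-0.35, adjusted p = 0.37) or blood library 1 (-0.66, adjusted p = 0.087) or centring (-0.82, adjusted p = 0.054). An intragenic region 38.3 kb downstream (chr13:37010821-37011080) went the other way, with 42.3 and 38.8 in blood, 65.5, 78.1 and 70.2 at 24 h and 64.5 and 68.2 at 48 h. It was higher by 1.06 (SE 0.25, adjusted p = 0.0018) at 24 h and 0.81 (SE 0.26, adjusted p = 0.010) at 48 h, and by 0.79 (adjusted p = 0.092) and 0.55 (adjusted p = 0.15) without blood library 2. Without centring neither passed (0.80, adjusted p = 0.053, and 0.70, adjusted p = 0.12). Only 1 of the 2 PBS Kupffer libraries had a peak there, at 11.5. The region 44.6 kb downstream was higher at 48 h (34.0 and 19.1 against 11.4 and 16.9, log2 0.94, SE 0.36, adjusted p = 0.036), a call that ended without 48 h library 1 (adjusted p = 0.42) or blood library 1 (0.13) or 2 (0.072) or centring (0.12). A further region, 4.02 kb downstream, was called in every blood and repopulating library (12.2 to 21.8) and in none of the other 16. F13a1 also had weaker regions that both blood libraries and no 48 h or PBS Kupffer library had. Distances are from the nearer of its 2 listed starts. Downstream of the inner start these regions lay at 2.17 kb (11.4 and 13.4 in blood), 85.2 kb (12.2 and 28.2) and 147 kb (11.4 and 10.6). The others lay 495 bases downstream (13 and 18.3) and 41.6 kb upstream (9.0 and 17.6) of the outer start.

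Vcan held the strongest member region, 2.06 kb downstream of its start (chr13:89740304-89740609). It had 316 and 469 in blood, 382, 393 and 235 at 24 h, 287 and 311 at 48 h, and 143 and 106 in PBS Kupffer cells. At 24 h 2 of the 3 libraries lay between the blood libraries, and the Kupffer values lay below all of these. The log2 difference from blood was 0.04 (SE 0.14, adjusted p = 0.87) at 24 h, -0.25 (SE 0.12, adjusted p = 0.085) at 48 h and -1.25 (SE 0.17, adjusted p = 2.7e-09) in Kupffer cells, which were also below 48 h macrophages (-0.99, SE 0.17, adjusted p = 1.1e-05). The neighbouring region 2.95 kb downstream fell at 48 h (-0.78, SE 0.18, adjusted p = 0.00063) and in Kupffer cells (-1.25, SE 0.21, adjusted p = 7.1e-07), and without 48 h library 1 the 48 h value was -0.49 (adjusted p = 0.060). A region 37.2 kb upstream had 23.6 and 33.8 in blood and 7.8 and 11.7 at 48 h (-1.35, SE 0.36, adjusted p = 0.0024), and without 48 h library 1 the difference was -1.09 (adjusted p = 0.052). Regions 121 bases and 1.56 kb downstream were called in blood library 1 (84.7 and 69.2) and not in blood library 2. Regions 23.6 kb upstream (13 and 28.2 in blood, 13.1 and 8.8 at 48 h) and 74.3 kb downstream (12.2 and 20.4, 16.6 and 19.8) were called in both blood and both 48 h libraries and in neither PBS Kupffer library.

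At Spn the region 2.91 kb downstream of the start (chr7:127134749-127135071) held 51.3 and 67.0 in blood, 15.0, 20.9 and 20.9 at 24 h and 10.5 and 24.9 at 48 h, with no peak in PBS Kupffer cells. It fell by 1.33 on the log2 scale at 24 h (SE 0.31, adjusted p = 0.0019) and by 1.68 at 48 h (SE 0.33, adjusted p = 4.1e-05). The always-called region 7.97 kb downstream ranged from 8.2 to 26.9 in blood and repopulating libraries, and that 28.0 kb upstream from 12.7 to 27.0, and neither passed in these comparisons. Regions 24.9 and 26.4 kb upstream and 426 bases downstream were called in both blood libraries (9.8 to 21.8) and in neither PBS Kupffer library. The region over the Spn start had a peak in 2 BMDM libraries alone, at 15.8 and 8.7.

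Counted over all members, 24 h macrophages had 2 regions higher and 4 lower than blood of 23 tested (26.1%, against 26.0% of all regions tested), and 48 h macrophages 2 higher and 8 lower of 27 (37.0%, against 36.0%). Kupffer cells had 3 higher and 5 lower of 14 (57.1%, against 51.0%). These shares were near those of all regions. The higher calls depended on centring: without it the 3 comparisons had 0 higher, and 7, 5 and 7 lower, where all regions had 2077 higher and 5808 lower, 4206 and 6480, and 3802 and 11825. With quantile normalisation the members had 2 higher and 5 lower of 23, 3 and 8 of 27, and 2 and 7 of 14. All regions then had 5410 higher and 5155 lower of 45317, 8624 and 8674 of 48853, and 9229 and 9836 of 37850. Lower calls made up 29.6% of the members tested at 48 h, against 18.0% of all regions, 17.4% at 24 h, against 9.33%, and 35.7% in Kupffer cells, against 25.3%. Higher calls made up 7.4%, 8.7% and 21.4%, against 18.1%, 16.7% and 25.7%. The median log2 difference of members was -0.33 at 48 h, against -0.02 over all regions, 0.01 against 0.09 at 24 h and -0.26 against 0 in Kupffer cells. Before centring, the median of all regions stood at -0.18 at 24 h, -0.13 at 48 h and -0.40 in Kupffer cells. Regions called in every blood library and in none of the other group numbered 7 at 24 h (13% of members called in either group, against 4.49% of all), 11 at 48 h (19.3%, against 4.91%) and 23 in Kupffer cells (46.0%, against 15.9%). The opposite count was 0, 1 and 0, the 1 being the Spn region 8.33 kb upstream of its start, and over all regions it was 3.02%, 11.2% and 12.8%. With peaks of at least 20 normalized tag counts alone, such regions in either direction numbered 3, 3 and 10. Without blood library 2 the 24 h count in either direction was 12. Leaving out a library loosens this rule, for members and all regions alike, so such a count can only stay or rise. By limma, fewer members and fewer of all regions passed at 24 h without blood library 2. The same held at 48 h without 48 h library 1. The 3 comparisons share the blood libraries. Blood also differs from these liver groups in mouse genotype, treatment and tissue, which cannot be told apart here.

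**Figure D5:**
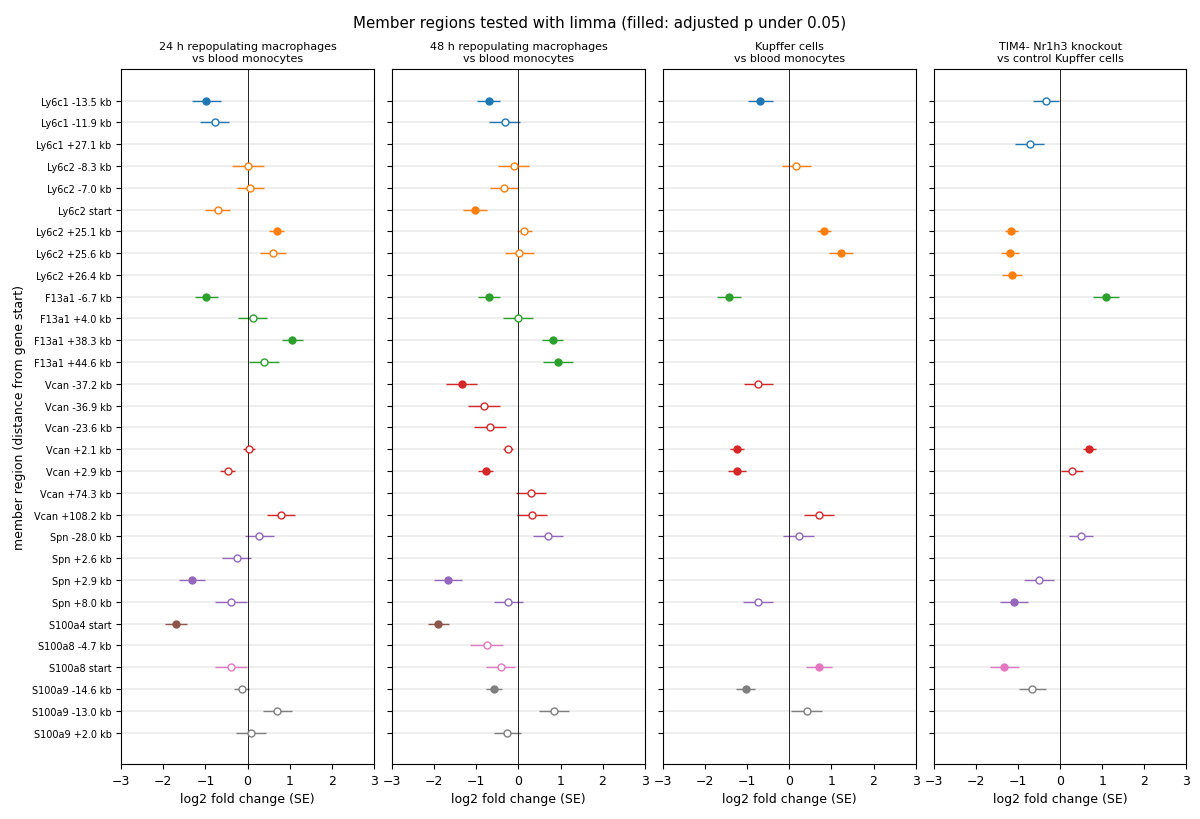
log2 difference (x axis, bars are SE) of the member regions tested (y axis, with distance from the start) in 4 comparisons, filled where the adjusted p was under 0.05. S100a4, Spn (2.9 kb) and F13a1 (6.7 kb upstream) lie left of 0 against blood, and the Ly6c2 regions 25 to 26 kb downstream lie left of 0 in TIM4- Nr1h3 knockouts.

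Between 24 h and 48 h no member region passed limma of 23 tested (0%, against 5.44% of all, 1.92% higher and 3.53% lower at 48 h). An unadjusted p under 0.05 was had by 2, and the share of all regions at that threshold was not computed. Without 24 h library 1, 1 of 25 members passed after adjustment (all regions 684 higher and 1010 lower of 50156). Without 24 h library 3 it was 1 of 24 (all regions 1744 and 3248 of 53060). Called in every library of one time and none of the other were the Spn regions 2.56 kb downstream (24 h) and 8.33 kb upstream (48 h), each 2.0% of the members called, against 0.609% and 5.09% of all. In those counts, without 48 h library 1 or 2 there were 8 or 4 such regions, under the rule that a left-out library loosens. Between 48 h and Kupffer cells 3 were higher and 1 lower of 14 (28.6%, against 26.4% of all, 13.7% higher and 12.6% lower), and 11 were called in both 48 h libraries and neither Kupffer library (26.8%, against 12.8%), with 0 the other way (against 4.53%). Fewer members, and fewer of all regions, passed limma without 48 h library 2. Under the looser rule without 48 h library 1, 19 regions were called in 1 group alone, in either direction. Before centring, the median of all regions was -0.30. The 11 included the starts of S100a4 and Ly6c2. The higher ones were the S100a8 start and the Ly6c2 regions 25.1 kb (log2 0.69, SE 0.18, adjusted p = 0.0027) and 25.6 kb downstream (1.21, SE 0.30, adjusted p = 0.0015), which without 48 h library 2 were 0.38 (adjusted p = 0.26) and 0.62 (adjusted p = 0.18). The lower one was the Vcan region 2.06 kb downstream. Without centring the balance turned, with 2 higher and 4 lower (all regions 2919 and 11666), and the region 25.1 kb downstream was at 0.41 (adjusted p = 0.099). In the same 48 h libraries the Kupffer gene list had 44 and 58 called regions, against 78 in each Kupffer library.

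In TIM4- Nr1h3 knockout cells 5 member regions were lower and 2 higher than in TIM4+ controls, of 13 tested (53.8%, against 13.7% of all, 6.68% lower and 7.03% higher). Fewer members passed without TIM4- library 1 or control library 2, as did fewer of all regions. The lower ones were the S100a8 start, the Spn region 7.97 kb downstream and the 3 Ly6c2 regions 25.1 to 26.4 kb downstream. The strongest of these held 128 and 131 in the knockouts and 197 and 247 in the controls (log2 -1.16, SE 0.15, adjusted p = 1.3e-11), and the farthest 27.7 and 31.6 against 49.2 and 51.5 (-1.15, SE 0.24, adjusted p = 6.0e-05). The middle one differed by -1.20 (SE 0.21, adjusted p = 1.8e-06), and by -0.70 (adjusted p = 0.13) without control library 2. Before centring, the median of all regions was 0.48 higher in the knockouts, and tags in peaks were 43.8% and 41.3% there against 33.4% and 26.0% in controls, whose part in the result was not tested. Without centring 3 members were higher and 4 lower, where all regions had 12329 higher and 1178 lower of 46888. In the same comparison the Kupffer genes had 0 regions higher and 20 lower of 44. A further 20 were called in controls alone, as were 3.50% of all regions called in either group. The other classical monocyte genes had 10 higher and 2 lower of 51. In the TIM4- knockouts alone 11 were called, as were 6.60% of all regions called in either group.

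The higher ones were the F13a1 region 6.65 kb upstream, with 28.9 and 29.4 against 12.1 and 7.9 (log2 1.08, SE 0.31, adjusted p = 0.0086), and the Vcan region 2.06 kb downstream, with 179 and 133 against 76.3 and 67.3 (0.69, SE 0.16, adjusted p = 0.00083). Without TIM4- library 1 these were 1.12 (adjusted p = 0.061) and 0.51 (adjusted p = 0.11), and the F13a1 call also ended without TIM4- library 2 (1.07, adjusted p = 0.062) or control library 2 (0.96, adjusted p = 0.10). The S100a8 start had 6.5 and 12.5 against 15.0 and 21.8 (-1.33, SE 0.34, adjusted p = 0.0018), and its call ended without TIM4- library 1 (-0.87, adjusted p = 0.17) or control library 2 (-0.92, adjusted p = 0.20). The Spn call (-1.09, SE 0.33, adjusted p = 0.012) ended without centring (-0.69, adjusted p = 0.095), TIM4- library 2 (-0.96, adjusted p = 0.094) or control library 1 (-0.91, adjusted p = 0.16). In both TIM4- libraries and neither control 4 regions were called (13.8%, against 6.60% of all): F13a1 38.3 kb downstream, Vcan 36.9 kb upstream, and Ly6c2 6.97 and 8.29 kb upstream. The reverse held for 1, the Spn region 8.61 kb downstream (3.4%, against 3.50%). Without TIM4- library 1, under the looser rule, the count over both directions was 13, against 5.

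TIM4+ Nr1h3 knockouts differed from the same controls in 1 of 10 tested (10.0%, against 8.78% of all, 4.86% higher and 3.91% lower). The farthest of the 3 Ly6c2 regions was higher, 62.6 and 58.7 against 49.2 and 51.5 (log2 0.57, SE 0.20, adjusted p = 0.049), and without centring the value was 0.26 (adjusted p = 0.79). The call also ended without knockout library 1 (0.38, adjusted p = 0.44), control library 1 (0.39, adjusted p = 0.44) or control library 2 (0.76, adjusted p = 0.073). The S100a8 start and Spn regions 2.91 and 8.61 kb downstream were called in both controls and neither TIM4+ knockout (17.6%, against 7.69%). None were the other way (against 1.06%). Without knockout library 1, under the looser rule, there were 5 such regions in either direction. The median of all regions before centring was -0.23. Both Nr1h3 comparisons share their controls, and the TIM4+ knockouts had fewer tags in peaks (21.9% and 26.6%).

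Titled Smad4 knockouts differed from titled controls in 1 region of 11 tested (9.1%, against 3.07% of all, 1.57% higher and 1.50% lower), the strongest downstream Ly6c2 region, with 170 and 187 against 179 and 140. These groups overlap before centring. The log2 difference was 0.51 (SE 0.13, adjusted p = 0.015), and without centring it was 0.17 (adjusted p = 0.84), without titled knockout library 1 0.40 (adjusted p = 0.21) and without titled control library 2 0.15 (adjusted p = 0.73). Regions called in both titled controls and neither titled knockout numbered 5 (21.7%, against 6.97%): the S100a8 start, S100a9 13 kb upstream, Spn 9.21 kb downstream, Vcan 37.2 kb upstream and Ly6c1 11.9 kb upstream. Their values in the controls were 6.6 to 17.5, and tags in peaks were 15.4% and 19.6% in titled knockouts against 19.5% and 25.2%. The F13a1 region 38.3 kb downstream was called in both titled knockouts (15.1 and 7.4) and neither titled control (4.3%, against 1.24%). The median of all regions before centring was -0.27.

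BMDM libraries had peaks over the starts of S100a4, S100a8, S100a9, F13a1 and Ly6c2 in every library. Untreated BMDM had 119 and 99.0 at the S100a4 start, 105 and 66.6 at the S100a8 start, 28.9 and 23.6 at the Ly6c2 start and 24.6 and 14.9 at the F13a1 start, where 1 blood library had 8.5. Nothing states that BMDM and blood came from the same experiment, so these levels are set side by side with no test. F13a1 had 2 regions called in all 4 BMDM libraries and in no other, 109 kb (24.0 to 39.3) and 14.4 kb (6.5 to 14.1) downstream of the start. With DLL4 both S100a4 regions were lower and no member was higher, of 36 tested (5.6%, against 3.88% of all, 1.52% lower and 2.36% higher). The start went from 119 and 99.0 to 75.6 and 71.8 (log2 -0.59, SE 0.16, adjusted p = 0.020) and the region 872 bases downstream from 67.0 and 63.9 to 29.8 and 32.2 (-1.09, SE 0.22, adjusted p = 0.00042). Treated and untreated libraries did not overlap in either. The start call ended without any 1 of the 4 libraries (-0.54 to -0.64, adjusted p = 0.079 to 0.26) and without centring (-0.55, adjusted p = 0.051), and that downstream ended without untreated library 1 (-1.14, adjusted p = 0.10). The S100a8 region 4.66 kb upstream (27.0 and 26.3) and the F13a1 region 41.6 kb upstream (8.0 and 8.8) were called in both untreated and neither treated library (2.7%, against 2.00%), and none the other way (against 2.10%). Leaving out 1 library, which loosens that rule for any gene, gave 5 to 12 such regions, the 12 without untreated library 2.

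Genes related by list were set beside the members, in counts. Against blood, 16.7% of all regions tested were higher and 9.33% lower at 24 h. The shares were 18.1% and 18.0% at 48 h, and 25.7% and 25.3% in Kupffer cells. Of 16 other classical monocyte genes (Ccr2, Chil3, Plac8 and others, 140 regions), 3 regions were higher and 14 lower at 24 h than in blood of 57 tested, with a median log2 difference of -0.24. At 48 h it was 9 higher and 24 lower of 60 (median -0.27), and in Kupffer cells 5 and 20 of 44 (median -0.48). For 10 nonclassical monocyte genes (Nr4a1, Cx3cr1, Ace and others) it was 5 and 7 of 51 at 24 h, 10 and 11 of 53 at 48 h, and 6 and 12 of 42 in Kupffer cells, with medians of 0.02, -0.05 and -0.15. At 9 other S100 genes no region was higher in any of the 3, and 7 of 21, 12 of 20 and 7 of 11 were lower (medians -0.45, -0.97 and -1.79). With DLL4, 7 of 29 S100 neighbour regions were lower and none higher, against 1.52% and 2.36% of all regions tested. At 7 other Ly6-family genes it was 1 higher and 3 lower of 21, 2 and 4 of 23, and 3 and 4 of 18.

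Some lists of other cell types also moved against blood. At 5 dendritic cell genes (Flt3, Zbtb46 and others) 1 region was higher and 6 lower of 19 at 24 h, 2 and 11 of 21 at 48 h, and 3 and 5 of 13 in Kupffer cells (medians -0.63, -0.85 and -0.05). All 5 had a peak in every library of these groups, and their summed signal was 1340 to 1852 in blood, 816 to 866 at 24 h, 824 to 915 at 48 h and 492 to 524 in PBS Kupffer cells. Of 33 regions of 6 T and NK cell genes, 16 to 17 were called in blood, 11 to 12 at 24 h, 10 to 17 at 48 h and 6 to 7 in PBS Kupffer cells. Their summed signal was 668 to 935, 481 to 675, 461 to 583 and 296 to 309. By limma 0 of these regions were higher and 1 lower of 6 tested at 24 h, and 0 and 2 of 8 at 48 h. In Kupffer cells it was 1 and 0 of 3 (medians -0.16, -0.39 and 0.21). At 5 endothelial genes 0 regions were higher and 0 lower of 9 at 24 h. It was 2 and 0 of 11 at 48 h, and 3 and 1 of 6 in Kupffer cells (medians 0.06, 0.18 and 0.52). The B cell, hepatocyte and stellate lists had 6 or fewer regions tested in each comparison with blood. The part of such cells in the members' values was not tested.

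The share of the 85 regions called in each of the 11 groups was also compared, by Pearson correlation over groups, with that of 9165 genes having at least 5 regions. The closest were Serpinb1a (r = 0.992, 8 regions), Cdc5l (0.992, 10), Hdac4 (0.991, 52), Aplnr (0.991, 12) and Klf8 (0.990, 13). Among the members F13a1 followed the joint pattern most closely (0.979), then Vcan (0.958), Spn (0.938), Ly6c1 and S100a9 (0.910 each) and Ly6c2 (0.760), each of which is part of that pattern. Depth and the number of peaks called differ between the groups and are shared by all genes, so these values are a description.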

How the data were processed

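ATAC-seq peak lists of 23 libraries in 11 groups were read. Reads had been aligned to mm10 with Bowtie2 and peaks called with HOMER, per the submitters' processing notes. Their versions are not given in the sources used here. Per the file headers, peaks were called in each library alone (factor style, size and minimum distance 200 bp, false discovery rate 0.001, 4 times the surrounding 10 kb, local Poisson p 0.0001, no input). The deposited signal is HOMER's normalized tag count per peak, scaled to 10 M tags per library. The deposited findPeaks score entered no test.

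Of 1605886 peaks, 1205 outside the 19 autosomes and X were left out. Peaks overlapping by 1 bp were merged, and the strongest peak gave a library's value. Nearest genes came from RefSeq (GRCm38.p6, 21631 protein-coding genes). Signal was tested, over the whole table, where all libraries of the 2 groups had a peak, on log2(normalized tag count + 1), centred on each library's median, with limma 3.58.1 (two-sided, with a trend in the prior variance, 9 comparisons, p adjusted by Benjamini-Hochberg and called under 0.05), after tests on simulated data. All 8 members have RefSeq windows. Fold changes of low regions are understated on this scale.

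The members and lists were chosen with earlier results of these data known, and 1 listed gene is not reported here. Regions named are those over a start, those called in most libraries, and those that passed limma or were called in 1 group only (not limited to 6 per gene, since the latter have no fold to rank). F13a1 14.4 and 109 kb downstream, Spn 28.0 kb upstream and Vcan 121 bases and 1.56 kb downstream were chosen after their values were seen. Alternatives were no centring, quantile normalisation, pseudocount 5, no filter, assignment within 10 kb, an overlap of 100 bp, a signal of at least 20, lists of equal length, each library left out, and the replicate block. Same-numbered libraries deviated together with correlations of 0.01, 0 and -0.04 over 2 pairs each, so the numbers were not used as pairs.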

Additional observations from a re-analysis of the deposited data

How the results depend on the processing

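None of the 39 called differences changed direction under the alternatives, and differences that did not pass were not recomputed. Of these 39 calls of member regions by limma, 11 were kept under every alternative that gave a value: S100a4 at the start and Spn 2.91 kb downstream (24 h and 48 h against blood), Ly6c2 at the start (48 h against blood), F13a1 6.65 kb upstream and Vcan 2.06 and 2.95 kb downstream (Kupffer cells against blood), Vcan 2.06 kb downstream (Kupffer cells against 48 h), and Ly6c2 25.1 and 26.4 kb downstream (TIM4- Nr1h3 knockouts). The other 28 were lost under at least 1. The cause was not tested. Peaks of 8 tags or a little more lie near the threshold of calling, which limits the counts of regions called in 1 group only. That threshold was higher in Kupffer-type libraries than in blood and repopulating ones.

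Counts of members passing limma moved as follows, beside the number tested. The setting of 10 kb leaves the calls over all regions unchanged. At 48 h against blood there were 10 of 27, and 5 of 27 without centring. All regions then had 4206 higher and 6480 lower of 48853. For Kupffer cells against blood there were 8 of 14, and 18 of 50 with no filter and 4 of 6 within 10 kb. With no filter all regions had 20642 higher and 19773 lower of 98561. For Kupffer cells against 48 h there were 4 of 14, and 2 of 6 within 10 kb. With an overlap of 100 bp there were 2 of 11 (all regions 6304 higher and 5378 lower of 45598). With the stricter signal there were 2 of 5 (all regions 4831 and 3553 of 30026). For TIM4+ knockouts there was 1 of 10, and 0 without centring, with quantile normalisation, pseudocount 5, no filter, 10 kb or the stricter signal. Of 40231 regions in all, 60 were higher and 1405 lower without centring, 1121 and 1789 with quantile normalisation, and 1781 and 1521 with pseudocount 5. It was 1501 and 909 of 74179 with no filter and 1127 and 846 of 24685 with the stricter signal. For TIM4- knockouts there were 7 of 13, and 3 of 29 with no filter, 4 of 6 within 10 kb and 4 of 5 with the stricter signal. All regions had 1980 higher and 2384 lower of 84576 with no filter, and 1248 and 1841 of 29011 with the stricter signal. For Smad4 there was 1 of 11, and 0 without centring, with quantile normalisation, no filter, 10 kb or the stricter signal. Of 40067 regions in all, 28 were higher and 502 lower without centring, and 253 and 414 with quantile normalisation. It was 495 and 509 of 79188 with no filter and 184 and 167 of 20821 with the stricter signal. For DLL4 there were 2 of 36, and 1 of 36 without centring and 0 of 73 with no filter. All regions had 1912 higher and 636 lower of 72015 without centring, and 123 and 181 of 118994 with no filter. Calls over all regions also changed with each library left out, which mostly left 1 library in a group. Leaving out 1 library gave 2 to 9 for 24 h against blood (6), 6 to 11 for 48 h against blood, 6 to 8 for Kupffer cells against blood, 0 to 1 for 48 h against 24 h (0), 2 to 5 for Kupffer cells against 48 h, 0 to 2 for TIM4+ knockouts, 4 to 6 for TIM4- knockouts, 0 to 2 for Smad4 and 0 to 1 for DLL4.

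Counts of regions called in 1 group only, both directions together, were 7 for 24 h against blood, and 4 within 10 kb and 3 with the stricter signal or lists of equal length. For 48 h against blood, 12 became 3 and 3 with the stricter signal and lists of equal length, and for Kupffer cells against blood 23 became 10 and 11. For 48 h against 24 h, 2 became 1 and 0, and for Kupffer cells against 48 h, 11 became 6 and 4. For TIM4+ knockouts 3 became 0 with the stricter signal. For TIM4- knockouts 5 became 2 and 3. For Smad4 6 became 3 within 10 kb, 2 and 1, and for DLL4 2 became 1 within 10 kb, 4 and 1. No share over all regions was computed for these alternatives. A left-out library loosens the rule, so the counts below can only stay or rise, for all regions too. Leaving out 1 library gave 8 to 12, 15 to 18, 23 to 28, 2 to 8, 13 to 19, 3 to 5, 5 to 13, 7 to 9 and 5 to 12 in the order 24 h, 48 h and Kupffer cells against blood, 48 h against 24 h, Kupffer cells against 48 h, TIM4+ knockouts, TIM4- knockouts, Smad4 and DLL4.

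With the replicate block, 2 members passed for TIM4+ knockouts (1 without the block), 7 for TIM4- knockouts and 2 for DLL4, the last 2 counts as without it. For the other 6 comparisons, no paired analysis was possible because the titles give no shared replicate numbers.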
